A study of Mus musculus with 8 samples.

Results

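Cytosolic ribosomal protein genes were followed across 4 acute leukaemias of mice with N-Myc overexpression and the 4 normal bone marrow populations sorted with the same surface antigens. The genes were chosen by name alone: every gene of the deposited table whose symbol starts with Rpl or Rps and a digit, plus Rplp0, Rplp1, Rplp2 and Rpsa, without the Rps6k kinases and without names marked as pseudogenes (-ps). The rule took 84 of the 16434 listed genes. Of these, 45 encode large subunit proteins and 27 encode small subunit proteins, and these 72 are called the subunit genes here. The other members are 8 paralogues of subunit genes, 3 copies that the GENCODE vM21 annotation calls pseudogenes (Rpl6l, Rps3a2, Rps3a3) and Rps19bp1, which encodes a partner of Rps19 and no ribosomal protein.

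The cytosolic ribosome is built from ribosomal RNA and a small and a large subunit, each carrying its own set of proteins that are made in near-equal numbers. Most of these proteins are encoded by single, very active genes whose transcripts begin with a C followed by a run of pyrimidines, the 5' TOP motif, through which mTORC1 and the RNA-binding protein Larp1 control their translation. MYC proteins are known as activators of ribosome production, and in blood cells the supply of ribosomal proteins matters for disease: mutations in several of these genes cause Diamond-Blackfan anaemia, and unassembled Rpl5 and Rpl11 bind Mdm2 and restrain p53 breakdown.

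All 8 groups came from bone marrow of C57BL/6 mice labelled as 8-10 weeks old. The B220+GFP+ leukaemia is B-ALL (acute lymphoblastic, B-cell) and the CD3+GFP+ one is T-ALL (acute lymphoblastic, T-cell). AML (acute myeloid) was sorted as Mac1+Gr1+GFP+, and AUL (acute undifferentiated) was GFP+ without B220, CD3, Mac1 and Gr1. The normal counterparts came from normal bone marrow by the same antigens: B220+ for B cells, CD3+ for T cells, Mac1+Gr1+ for the myeloid and B220-CD3-Mac1-Gr1- for the lineage-negative library. Wherever 4 values stand in a sentence, they follow the gates in the order B-cell, T-cell, myeloid, lineage-negative. Each group had 1 library, the number of mice behind a library is not given in the sources used here, and the way N-Myc and GFP were introduced is not given either. Values are FPKM, fragments scaled by transcript length and by the mapped total of the library.

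The libraries held 33818350 to 52280200 fragments, so counting error is small for the abundant members. Fragments are given beside Rps4l, Rpl3l and Rpl39l, the members that lay under an FPKM of 1 in some library. Mycn, the gene of N-Myc, had 1587, 843, 1858 and 719 FPKM in the leukaemias, while the normal libraries had 1.66, 0.594, 0.518 and 5.24, so its levels go with the labels. The lineage markers go with the labels less fully. The 5 B-cell markers summed to 1711 FPKM (B-ALL) and 4023 (its normal counterpart), but also to 610 in the library of normal T cells and 608 in that of normal lineage-negative cells. Of the 6 T-cell markers, 4 reached an FPKM of 1 in T-ALL (Cd8a was at 0), and 4 also did in AUL, where the sum was 523 although the gate excluded CD3. Itgam, which encodes Mac1, is listed under 2 gene identifiers. The more abundant had 1.63 FPKM in AML against 208 in normal myeloid cells, and the other 0 against 0.493. None of 5 stem and progenitor markers reached an FPKM of 1 in AUL, where Meis1 was at 0. The part of these markers in the results below was not tested.

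Sequences at the start sites show what the members share beyond their names. RefSeq promoter windows of the GRCm38.p6 build, which reach from 250 bases before to 50 bases after a start site, were matched for 62 of the 84 members, giving 74 windows. A run of at least 8 C or T letters within 15 bases of the start stood in 36.5% of these windows and in 12.0% of all 32851 windows. The 30 bases around the start are printed below for the members on which the results turn, with the longest C or T run within them in capitals (the first where runs tie, as in Rps27rt). Rps27, Rps27l and Rps27rt are shown because they encode near-identical proteins whose levels went different ways, Rps28 and Rpl22l1 because they were low in lymphoid leukaemias, and Rpl14 because it was among the members with the highest ratios.
Rps27, chr3:90213634-90213663, minus strand: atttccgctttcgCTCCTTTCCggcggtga
Rps27l, chr9:66946071-66946100, plus strand: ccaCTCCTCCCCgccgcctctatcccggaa
Rps27rt, chr9:114982725-114982754, minus strand: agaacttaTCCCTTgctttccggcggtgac
Rps28, chr17:33824548-33824577, minus strand: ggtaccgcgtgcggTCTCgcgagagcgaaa
Rpl22l1, chr3:28805493-28805522, plus strand: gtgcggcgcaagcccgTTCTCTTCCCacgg
Rpl14, chr9:120571502-120571531, plus strand: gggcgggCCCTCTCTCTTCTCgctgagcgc

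These RefSeq starts lie 0 to 3 bases from the gene ends of the table for Rps27, Rps27l, Rps27rt and Rps28, and 72 and 73 bases inside them for Rpl22l1 and Rpl14. The Rpl14 run spans 14 letters and that of Rps28 only 4, so the members do not share one start sequence. In the same windows 3 motifs were searched on both strands. The E-box CACGTG, the site that MYC proteins prefer, stood in 10.8% of the member windows and in 7.15% of all windows. CCGGAAG, the core letters bound by ETS factors, stood in 36.5% against 8.86%, and TCGCGAGA in 16.2% against 0.995%. One example of each of the first pair of motifs, in capitals, is printed with 25 bases on either side: the E-box that begins 168 bases before the start of Rpl14, and the ETS letters 73 bases before the RefSeq start of Rps25 (575 bases from the table's gene end), a small subunit gene that was higher in every leukaemia library than in every normal one.
Rpl14, chr9:120571324-120571379, plus strand: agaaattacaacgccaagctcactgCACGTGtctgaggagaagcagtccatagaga
Rps25, chr9:44407616-44407672, plus strand: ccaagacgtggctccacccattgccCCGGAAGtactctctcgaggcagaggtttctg

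The members made up a large share of the measured transcripts in every library except normal myeloid cells. Their FPKM summed to 16.1%, 20.7%, 18.5% and 21.7% of the FPKM of all listed genes in the leukaemias. In the normal libraries the share was 14.3%, 22.6%, 3.36% and 15.3%. The range over leukaemias therefore lay inside that over normal cells, with normal T cells highest of all 8 and normal myeloid cells lowest. In normal myeloid cells 16.6% of the listed FPKM came from S100a8 and S100a9, which encode a pair of calcium-binding proteins abundant in neutrophils. With those genes, receptor segments and Mycn left out of the total, the members' share in normal myeloid cells was 4.04% and still the lowest, since the other libraries then had 14.9% to 23.05%. In sorted bulk samples, fewer cells of a type and less RNA per cell cannot be told apart.

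The median subunit gene had 1197, 1372, 1390 and 1653 FPKM in the leukaemias, whereas the normal libraries had 1052, 1742, 306 and 1228. All 72 subunit genes had their lowest value in normal myeloid cells. The highest value of the 8 stood in AUL for 29 of them, in normal T cells for 27, in AML for 9 and in T-ALL for 7. Among the leukaemias alone, AUL was highest for 49 of 72 subunit genes and B-ALL lowest for 61, and among the normal libraries T cells were highest for 67.

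**Figure D1:**
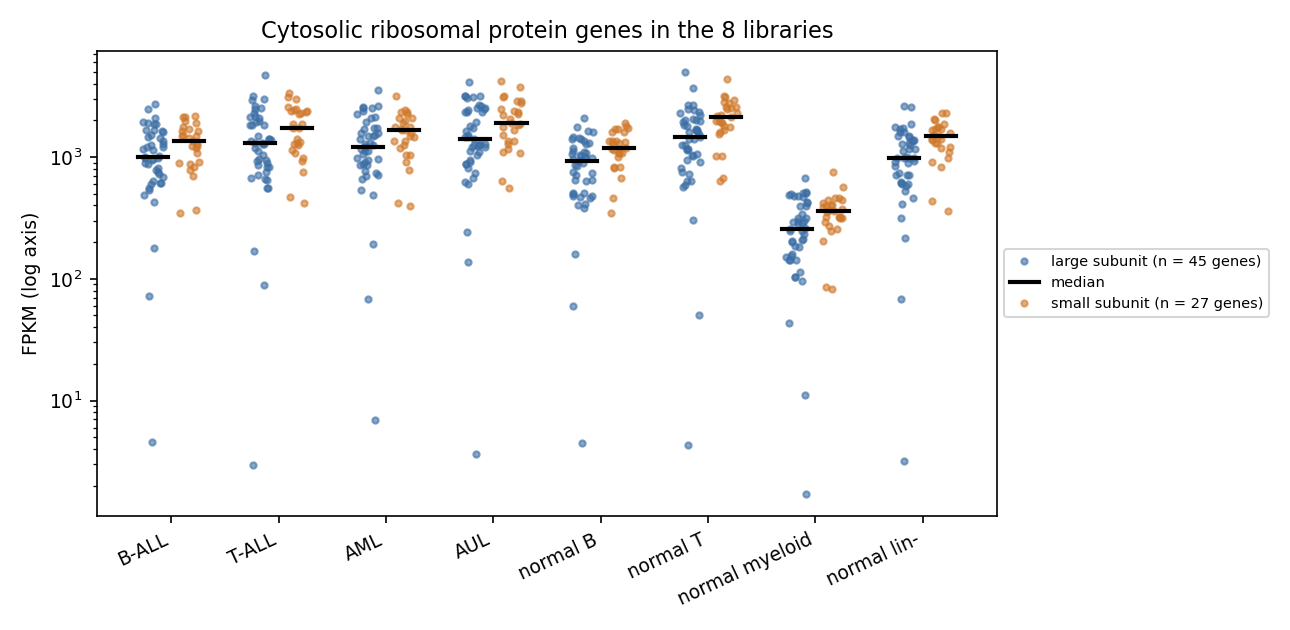
FPKM (log axis) of the 45 large and 27 small subunit genes in the 8 libraries, 1 point per gene, with a bar at the median of each subunit. Normal myeloid cells sit lowest, with medians of 255 (large) and 359 (small) FPKM, and the low point in each library is Rpl24.

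The proteins of the small subunit had higher transcript levels per length than those of the large subunit in all 8 libraries. The median large subunit gene had 995, 1291, 1219 and 1413 FPKM in the leukaemias and 934, 1462, 255 and 987 in the normal libraries. The median small subunit gene had 1346, 1719, 1651 and 1895 FPKM in the leukaemias and 1188, 2111, 359 and 1476 in the normal libraries. The ratio of the large to the small median was 0.738 to 0.751 in leukaemias and 0.668 to 0.786 in normal cells, so the leukaemia range lay inside the normal one.

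The 5 most abundant members by mean FPKM were Rplp0, Rps14, Rplp1, Rpsa and Rps2. Rplp0, the base of the stalk that recruits elongation factors to the large subunit, had 2699, 4752, 3574 and 4152 FPKM in the leukaemias and 1780, 3655, 668 and 2589 in the normal libraries. It was higher in the leukaemia of each gate, but the normal T-cell value exceeded those of B-ALL and AML. Rps14, a small subunit gene, had 2158, 3012, 2324 and 4172 FPKM in the leukaemias and 1791, 4344, 756 and 2283 in the normal libraries. Here the normal T cells were above T-ALL and above every other library. Rpsa, a small subunit gene whose product is also known as a laminin receptor, had 1709, 3341, 2260 and 3730 FPKM in the leukaemias and 1355, 3187, 463 and 1995 in the normal libraries. Rps2, which lines the entry of the mRNA channel, had 2112, 3110, 3174 and 3172 FPKM and 1173, 2157, 391 and 2070. Both were higher in the leukaemia of each gate, and their ranges overlapped.

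Some members were far below the rest. Rpl24, a large subunit gene, had 1.70 to 6.88 FPKM over the 8 libraries, and Rpl13a, another, had 11.2 to 136. The lowest and highest Rpl24 values, in normal myeloid cells and AML, rested on 46 and 151 fragments. Of the exon bases of Rpl24, 47.0% overlap exons of the annotated gene Gm28037, and 49.0% of its stretches of 100 bases also occur in other genes' transcripts. For Rpl13a the overlap with other genes was 35.4%. Altogether 50 of the 84 members share at least 10% of their 100-base stretches with another gene, so the split of fragments between them depends on how the authors counted. The part of this in the levels was not tested.

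B-ALL had slightly more transcript of most subunit genes than normal B cells, with a few marked exceptions. Of 83 members that reached an FPKM of 1 in the higher library, 2 were at least 2-fold higher in B-ALL, where 18.2% of all listed genes passing that filter were, and 5 were at least 2-fold lower, where 21.9% were. The median log2 ratio of the members was 0.27, against -0.02 over all genes, and 63 members had a ratio above 0. Ratios here and below are differences of log2(FPKM + 1), leukaemia minus normal, which understate the change of genes near or under an FPKM of 1. The medians were 0.31 for the large and 0.14 for the small subunit genes. With 1 library a group there is no replicate check and no p-value. Markers of other cells differed in this pair too. Plasmacytoid dendritic markers summed to 107 FPKM in the leukaemia and 1192 in the normal library. NK-cell markers summed to 4.065 and 74.3, and basophil and mast cell markers to 22.2 and 149. T-cell markers summed to 78.7 and 98.5 but went both ways. Cd3d, Cd3e and Cd3g were higher in B-ALL, with 30.25, 23.8 and 23.8 FPKM against 0.991, 0.244 and 1.34. Cd4, Cd8a and Cd8b1 were lower, with 0.533, 0.243 and 0.0629 FPKM against 85.5, 4.57 and 5.83. Myeloid markers summed to 7750 and 2473, but they were split. Itgam, Csf3r, S100a8 and S100a9 were higher in B-ALL, the last pair with 3581 and 3785 FPKM against 748 and 1122. Elane, Mpo and Ly6c2 were lower in B-ALL, with 96.2, 104 and 127 FPKM against 158, 228 and 199. The part of these in the members' ratios was not tested.

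The higher members in B-ALL were Rps27l, with 317 FPKM against 98.5 (log2 ratio 1.68), and Rps19bp1, with 52.3 against 25.4 (1.02). Rpl14, a large subunit gene, followed with 1266 against 650 (0.96). The lower members were Rps4l, Rpl3l, Rpl22l1, Rps27 and Rps29. Rps27 and Rps29 encode small subunit proteins, and their log2 ratios were -1.08 and -1.06. Rpl22l1, the paralogue of Rpl22, had 55.6 FPKM against 132 (-1.23), the lowest ratio in this pair after Rps4l and Rpl3l.

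T-ALL had similar or slightly lower levels of most members than normal T cells. Of 82 members, 2 were at least 2-fold higher, against 22.1% of all genes, and 5 were at least 2-fold lower, against 24.0%. The median log2 ratio was -0.14, against 0.03 over all genes, and 31 of 82 members were above 0. The large subunit median was -0.12 and the small subunit median -0.23. The higher members were Rps27l, with 266 FPKM against 66.3 (1.99), and Rpl7l1, a paralogue of Rpl7, with 65.1 against 26.95 (1.24). The lower members were Rps4l, Rps27 (-1.66), Rps29 (-1.44), Rps28 (-1.23) and Rpl22l1 (-1.12), and Rps21 lay just outside with 1151 FPKM against 2302. The 8 proliferation genes had median log2 ratios of 1.045, 2.60, 1.13 and 0.45 in the 4 gates, where the members had 0.27, -0.14, 2.25 and 0.59. Mki67, 1 of the 8, had 0.52, 1.88, -0.18 and -0.08. NK-cell markers summed to 0.0157 FPKM in T-ALL, with Klrd1 and Klrk1 at 0, and to 403 in normal T cells. Basophil and mast cell markers summed to 1.72 and 473, and B-cell markers to 5.83 and 610. The part of these in the members' ratios was not tested.

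AML differed from normal myeloid cells by far the most. Of 83 members, 80 were at least 2-fold higher, where 43.3% of all genes were, and 1 was at least 2-fold lower, where 26.7% were. The median log2 ratio was 2.25, against 0.56 over all genes. All 45 large subunit genes and 26 of 27 small subunit genes were at least 2-fold higher, with medians of 2.29 and 2.27. The exception was Rps27, with 787 FPKM against 461, a log2 ratio of 0.77. The highest ratios belonged to the large subunit genes Rpl12 (1050 FPKM against 115, 3.19), Rpl14 (1416 against 155, 3.18) and Rpl36a (906 against 104, 3.12), and the lower member was Rps4l. Under median-ratio scaling, which equalises the typical gene in place of the fragment total, 41.2% of the 2-fold calls over all genes were higher in AML in place of 61.8%, the members' median was 1.40 and 65 members were at least 2-fold higher, where 28.5% of all genes were. That scaling moved the median log2 ratio of all genes from -0.02, 0.03, 0.56 and -0.18 in the 4 gates to -0.13, -0.12, -0.14 and -0.01, and the members' median stayed on its side of 0 in each. The 7 myeloid markers summed to 113751 FPKM in the normal myeloid library and to 11225 in AML, but they were split. Itgam, Csf3r, S100a8 and S100a9 were lower in AML, the last pair with 1788 and 2584 FPKM against 45392 and 65795. Elane, Mpo and Ly6c2 were higher in AML, with 3481, 2220 and 1081 FPKM against 446, 354 and 609. The part of these differences in the members' ratios was not tested.

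AUL had moderately higher levels than lineage-negative cells. Of 83 members, 8 were at least 2-fold higher, against 13.6% of all genes, and 2 were at least 2-fold lower, against 29.5%. The median log2 ratio was 0.59, against -0.18 over all genes, and 74 of 83 members were above 0. The highest ratios were those of Rpl30 (2501 FPKM against 997, 1.33) and Rpl17 (742 against 314, 1.24), both of the large subunit, and of Rps3a2 (26.3 against 11.1, 1.18), a copy annotated as a pseudogene. The lower members were Rps4l and Rpl3l, and Rps29 (-0.59), Rps28 (-0.35) and Rplp2 (-0.24) followed without reaching 2-fold. The stem and progenitor markers summed to 301 FPKM in the normal lineage-negative library and to 1.25 in AUL. Basophil and mast cell markers summed to 2410 and 4.003 in these libraries, myeloid markers to 21453 and 1629, NK-cell markers to 81.2 and 1.81, B-cell markers to 608 and 3.57, and T-cell markers to 13.95 and 523. The part of these differences in the members' ratios was not tested.

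**Figure D2:**
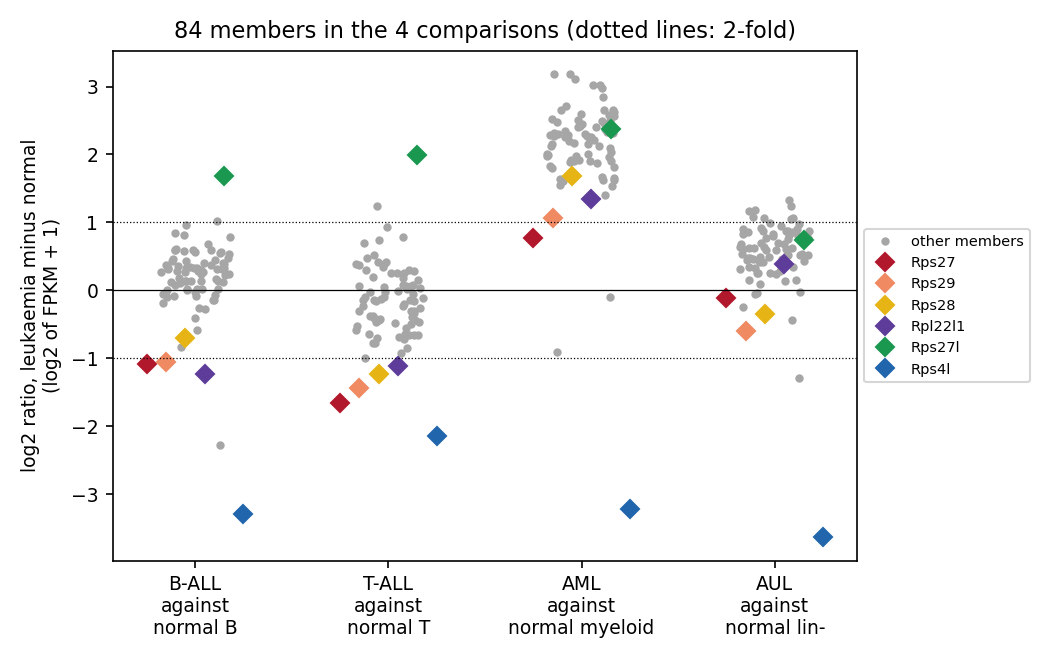
Log2 ratio of leukaemia to normal, log2(FPKM + 1) scale, of the 84 members in the 4 gates, 1 point per gene. The myeloid gate lies apart with a member median of 2.25, the other gates have medians of 0.27, -0.14 and 0.59, and Rps27l and Rps4l stand at the ends of the T-cell and B-cell gates.

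The 4 gates were then taken as 4 pairs in a limma model with the gate as a block. The libraries are 1 per group and nothing says that they come from separate mice. These p-values therefore rest on the spread of the difference between gates and not on any spread between animals. In limma each gene's own spread is drawn toward that of other genes at similar levels, so the SEs also reflect other genes. Of 83 members in the fit, 1 passed an adjusted p of 0.05 (Benjamini-Hochberg over 11071 genes), where 3.69% of all genes did. None was higher, where 1.26% of all genes passed as higher, and 1 was lower, where 2.42% did. That member was Rps4l, which fell by 3.07 on the log2 scale (SE 0.44, adjusted p = 0.033 by limma) and was lower in 4 of 4 gates. The call was lost without the T-cell, myeloid or lineage-negative gate, with adjusted p of 0.099, 0.059 and 0.060 by limma. At an unadjusted p of 0.05, 9 members passed, where 35.4% of all genes did. The median member had a mean log2 difference of 0.74, against -0.08 over all genes, and 77 of 83 were above 0. The value depended on the myeloid gate: without it the median member had 0.27, and no gene of any kind passed the adjusted threshold in limma, with 13 members and 33.4% of genes below an unadjusted p of 0.05. Rps27l had the highest mean difference, 1.70 (SE 0.38, adjusted p = 0.054 by limma), and it was higher in the leukaemia of 4 of 4 gates.

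Leukaemia and normal libraries did not overlap for 10 members: 9 were higher in all 4 leukaemia libraries than in all 4 normal ones (Rpl6, Rpl13a, Rpl14, Rpl28, Rpl29, Rpl36al, Rps19bp1, Rps25 and Rps26) and Rps4l was lower. Over all genes in the fit 26.5% did not overlap. Rpl28, a large subunit gene, had 2477, 3153, 2542 and 2614 FPKM in the leukaemias, and the normal libraries had 1410, 1645, 506 and 1734. Its lowest leukaemia value, in B-ALL, was still above the highest normal value, in lineage-negative cells.

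A shift common to all subunit genes can hide changes in their proportions. Each subunit gene was therefore also expressed relative to the median subunit gene of its own library, a view chosen after the data had been seen. Relative to the median, 78.5% of the 72 genes in the 4 gates differed by less than 0.5 (log2) between leukaemia and normal cells. Among the 72, only Rps27 and Rps29 were lower by at least 0.5 in all 4 gates, and only Rpl29 was higher by that much in all 4. Counts of differences in this view were made for the subunit genes only, so no share over all genes stands beside them.

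Rps27, Rps28 and Rps29 stood out together in this view. All encode small proteins of the small subunit and all are among the genes mutated in Diamond-Blackfan anaemia. Relative to the median subunit gene, Rps27 was lower in every leukaemia than in the matched normal cells, with differences of -1.27, -1.32, -1.41 and -0.54. For Rps29 they were -1.24, -1.10, -1.11 and -1.02, and for Rps28 they were -0.88, -0.89, -0.50 and -0.78. Rps29 had 834, 935, 1194 and 1513 FPKM in the leukaemias, and the normal libraries had 1734, 2539, 569 and 2283. Only normal myeloid cells were below the leukaemias. Rps28 had 701, 760, 1033 and 1096 FPKM against 1134, 1787, 321 and 1398, with the same order. With each library scaled to its median subunit gene, limma gave Rps29 a mean difference of -1.12 (SE 0.25, adjusted p = 0.083), Rps27 one of -1.13 (SE 0.29, adjusted p = 0.096) and Rps28 one of -0.76 (SE 0.27, adjusted p = 0.15). By this fit 0 of 83 members and 0.00903% of all genes passed the adjusted threshold. At an unadjusted p of 0.05, 7 members and 27.0% of all genes passed there. The median member had a mean log2 difference of 0.13 in this fit, against -0.48 over all genes.

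**Figure D3:**
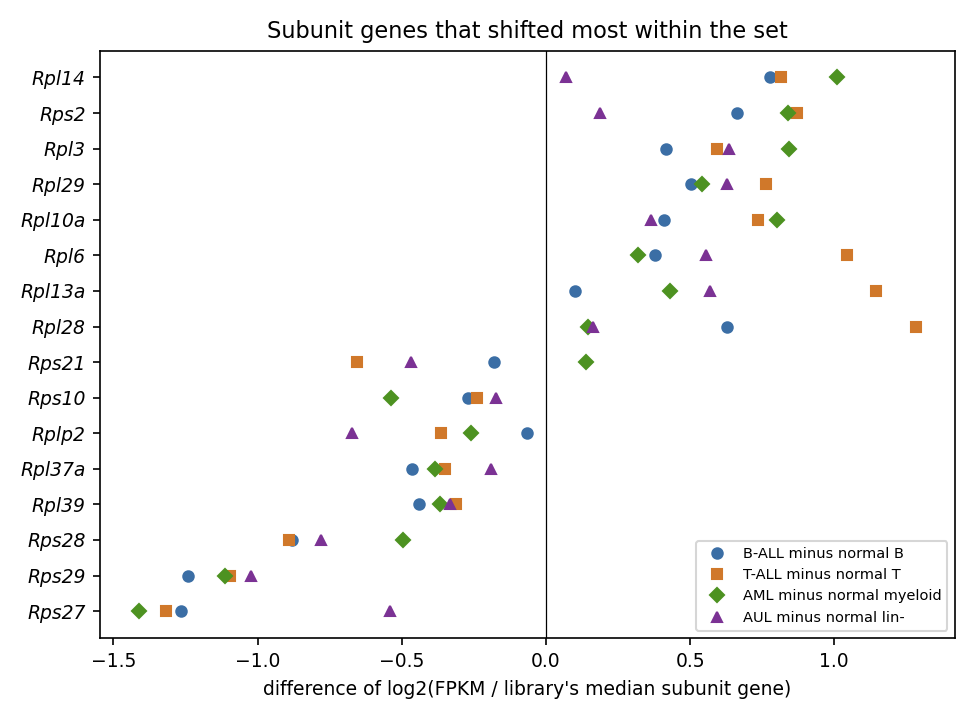
Difference between leukaemia and normal cells in each subunit gene's log2 FPKM relative to its library's median subunit gene, for the 4 gates (symbols), shown for the genes that differed most. Rps27 and Rps29 lie below -0.5 in every gate, Rpl29 lies at or above 0.5 in every gate, and Rpl14 ranges from 0.07 in AUL to 1.01 in AML.

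On the other side, Rpl14 was higher relative to the median by 0.78, 0.82, 1.01 and 0.07 in the leukaemias. Rps2 was higher by 0.66, 0.87, 0.84 and 0.19, and Rpl3, which lies at the peptidyl transferase centre of the large subunit, by 0.41, 0.59, 0.84 and 0.63. Rpl29 was higher by 0.50, 0.76, 0.54 and 0.63. In all, 28 of 72 subunit genes were relatively higher in 4 of 4 gates and 12 relatively lower. As a description, Pearson's r of the log2 ratio with log2 transcript length over the 72 genes was 0.22, 0.14, 0.26 and 0.33. The part of transcript length in the proportions was not tested.

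The paralogues were described one by one, since a copy can replace its parent in the ribosome. Rps27l, which encodes a protein nearly identical to Rps27 and is known as a p53 target, had 317, 266, 365 and 464 FPKM in the leukaemias. In the normal libraries it had 98.5, 66.3, 69.9 and 276. The leukaemia values overlapped with the normal ones only because lineage-negative cells, at 276, lay above T-ALL. Rps27 itself had 892, 983, 787 and 1365 FPKM in the leukaemias and 1887, 3113, 461 and 1476 in the normal libraries. The ratio of Rps27 to Rps27l was therefore 2.81, 3.69, 2.16 and 2.94 in the leukaemias and 19.2, 46.95, 6.59 and 5.36 in the normal libraries, with no overlap. The levels of 26.5% of all single genes in the fit did not overlap either. Ratios were measured for the paralogue pairs only, so no share over gene pairs in general stands beside this. Rps27l shares no stretch of 100 bases with another gene, and Rps27 shares 20.4% of its own. Mdm2, another p53 target, was lower in the leukaemia of all 4 gates, with 48.7, 42.5, 48.0 and 36.0 FPKM against 72.2, 53.2, 68.2 and 54.5. Its mean log2 difference was -0.49 (SE 0.31, adjusted p = 0.26 by limma). The part of p53 in the levels of Rps27l and Mdm2 was not tested.

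**Figure D4:**
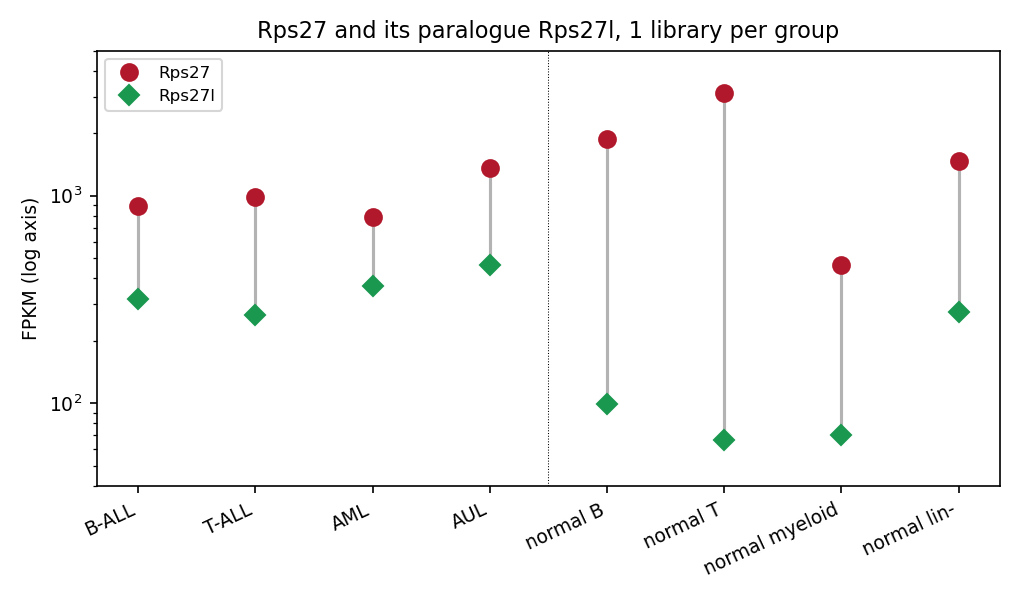
FPKM of Rps27 and its paralogue Rps27l in each library (log axis). The gap between the 2 genes is a ratio of 2.16 to 3.69 in leukaemias and of 5.36 to 46.95 in normal cells. Ratios of gene pairs other than the paralogue pairs were not measured.

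Rps27rt, an intronless copy of Rps27, had 224, 288, 283 and 355 FPKM in the leukaemias and 400, 548, 107 and 204 in the normal libraries. The ratio of Rps27 to Rps27rt was 3.98, 3.41, 2.78 and 3.84 in the leukaemias. In the normal libraries it was 4.72, 5.68, 4.32 and 7.22, again with no overlap. Of the 100-base stretches of Rps27rt 89.5% occur in another gene's transcripts, so its values are uncertain. The split of fragments between it and Rps27 was not tested. Rpl22l1 is held down by Rpl22 in other settings, and this pair differed in the direction opposite to that of Rps27 and Rps27l. Rpl22l1 had 55.6, 99.8, 140 and 176 FPKM in the leukaemias, and the normal libraries had 132, 218, 54.8 and 135. The ratio of Rpl22 to Rpl22l1 was 9.57, 5.58, 3.80 and 3.57 in the leukaemias and 3.04, 2.59, 1.74 and 3.40 in the normal libraries. Every leukaemia was above every normal library, with AUL and lineage-negative cells close together. The ratio of Rps4x to Rps4l did not overlap either, while those of Rpl36a to Rpl36al, Rpl7 to Rpl7l1 and Rpl3 to Rpl3l did. Ratios of other gene pairs were not measured.

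Rps4l, an intronless relative of Rps4x annotated as a transcribed pseudogene, was close to silent in the leukaemias. It had 0.323, 0.0267, 0.0273 and 0.102 FPKM in the leukaemias, from 12, 1, 1 and 3 fragments. The normal libraries had 11.9, 3.53, 8.57 and 12.7 FPKM from 412, 113, 388 and 489 fragments. The leukaemias were lower by 36.9-fold (95% counting interval 20.9 to 72.0), 132-fold (23.2 to 5257), 314-fold (56.0 to 12434) and 124-fold (42.2 to 603). These intervals cover counting error only. It shares 1.66% of its 100-base stretches with other genes, whereas Rps4x, its abundant relative, had 323 to 2398 FPKM.

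Rpl3l, a muscle paralogue of Rpl3, had 0.0466, 0.0924, 0.967 and 0.590 FPKM in the leukaemias and 4.08, 0.701, 2.67 and 2.87 in the normal libraries. These rest on 2, 4, 41 and 20 fragments in the leukaemias and 163, 26, 140 and 128 in the normal libraries, and it was lower in the leukaemia of each gate. Rpl36al, the expressed copy of Rpl36a, had 405, 417, 497 and 654 FPKM in the leukaemias, and the normal libraries had 269, 328, 92.9 and 367. Rpl7l1 had 49.5, 65.1, 63.0 and 59.3 FPKM against 33.6, 26.95, 21.2 and 49.7. Both were higher in the leukaemia of each gate. Rpl39l, a testis paralogue of Rpl39, stayed under 1 FPKM in every library, from 11, 0, 5 and 2 fragments in the leukaemias and 7, 18, 9 and 14 in the normal libraries. It had 0 fragments in T-ALL, which allows up to 0.103 FPKM there.

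Within the stalk, Rplp1 and Rplp2 behaved unlike Rplp0 in the T-cell gate. Rplp1 had 1899, 2921, 2503 and 3132 FPKM in the leukaemias and 2096, 5000, 512 and 2613 in the normal libraries, and Rplp2 had 1427, 1476, 1512 and 1259 against 1313, 2411, 399 and 1491. The normal T cells were the highest of the 8 libraries for both. Rpl5 and Rpl11, which join 5S ribosomal RNA, had median log2 ratios of 0.32, -0.22, 2.24 and 0.72 in the B-cell, T-cell, myeloid and lineage-negative gates. Rpl5 had 1156, 1380, 1246 and 1736 FPKM in the leukaemias and 934, 1710, 207 and 982 in the normal libraries, and Rpl11 had 1619, 2100, 1729 and 2451 against 1283, 2312, 465 and 1596. Both were lower in T-ALL than in normal T cells and higher in the other leukaemias. The 18 genes of Diamond-Blackfan anaemia had medians of 0.19, -0.35, 2.11 and 0.52, and 11, 4, 18 and 14 of them had a ratio above 0. Of the members, 63 of 83, 31 of 82, 81 of 83 and 74 of 83 were above 0. Over all genes the counts were 5254 of 10608, 5295 of 10461, 5626 of 9965 and 4815 of 10759. Rps19, the gene most often mutated in that disease, had 1188, 1279, 1246 and 1280 FPKM in the leukaemias, a narrower range than the 1082, 1986, 317 and 1305 of the normal libraries.

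Genes that serve the ribosome but do not match the naming rule were measured beside the members. Mitochondrial ribosomal proteins (62 genes), which build the separate ribosome of mitochondria, had median log2 ratios of 0.80, 0.93, 1.96 and 0.57 in the B-cell, T-cell, myeloid and lineage-negative gates, against 0.27, -0.14, 2.25 and 0.59 for the members. Of these 62 genes 22, 28, 60 and 9 were at least 2-fold higher, where 18.2%, 22.1%, 43.3% and 13.6% of all genes were, and 1 was at least 2-fold lower, in AML. Factors of subunit export and maturation (12 genes) had medians of 1.10, 0.78, 2.47 and 0.54. All 12 were above 0 in each gate (the counts over all genes stand in the paragraph above). Nob1, the nuclease that trims the small subunit RNA, had 131, 137, 99.5 and 139 FPKM in the leukaemias and, in the normal libraries, 44.8, 55.8, 6.51 and 57.5. Partners of ribosomal proteins (11 genes) had medians of 1.34, 0.96, 2.26 and 0.48. Larp1, the TOP-binding protein, had 134, 103, 117 and 83.6 FPKM against 45.5, 58.2, 19.7 and 66.6. Ltv1 is in both of these lists. None of the 12 maturation factors and 11 partners passed the adjusted threshold in limma, where 3.69% of all genes did.

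Translation genes with known TOP transcripts (13 genes) had medians of 0.49, 0.36, 2.02 and 0.80. In limma 1 of them passed the adjusted threshold as higher, where 1.26% of all genes did. It was Npm1, a nucleolar chaperone (mean log2 difference 2.63, SE 0.53, adjusted p = 0.046 by limma). Without the myeloid gate no gene of any kind passed, Npm1 included. Eef1a1, the elongation factor that brings aminoacyl-tRNA to the ribosome, had 6899, 10244, 7663 and 10317 FPKM in the leukaemias against 6522, 11897, 1801 and 7374. It was lower in T-ALL and higher in the other leukaemias, as was the median subunit gene. Most of its list differed from it in T-ALL: 10 of the 13 genes had a ratio above 0 there, against 5295 of 10461 over all genes. Of the ribosomal proteins with other names, Rack1 had log2 ratios of 0.52, 0.25, 2.52 and 0.77, and Fau, which encodes a small subunit protein fused to a ubiquitin-like one, had -1.17, -0.61, 0.78 and 0.22.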

How the data were processed

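Per the labels' protocols, poly(A) RNA from sorted cells was randomly primed and sequenced in pairs on an Illumina HiSeq. The authors deposited FPKM values, made per the submitters' processing notes with the mm10 build, STAR, HTSeq and edgeR, without versions. The rule by which genes entered the table is not stated. Fragment totals were recovered here from the steps of FPKM times GENCODE vM21 mean transcript length: 95.6% to 96.2% of tested single-transcript values were whole within 0.02 of a fragment. A member was called 2-fold when its log2(FPKM + 1) difference was at least 1 and the higher library had an FPKM of 1 or more. The fit used limma 3.58.1 in R 4.3.3 with trend on genes of FPKM at least 1 in at least 2 libraries, with 3 residual degrees of freedom, and was tested on simulated data. All members could be named. Values were given for the extreme ratios per comparison (FPKM at least 5), the 5 most abundant members, the paralogues, and the stalk and 5S genes, and for the Diamond-Blackfan genes as counts and medians with examples. The members, lists and tests were chosen with earlier results of these data known. The gates pair libraries by antigen, not by animal. Sequences came from RefSeq (GRCm38.p6).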

Additional observations from a re-analysis of the deposited data

Results flagged for a closer look

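A set of 3 members went opposite ways in different gates by more than 2-fold in each direction, and no test of these differences between gates was possible with 1 library a group. Rpl22l1 had a log2 ratio of 1.34 in AML against normal myeloid cells and of -1.23 in B-ALL against normal B cells. Rps28 had 1.68 in AML and -1.23 in T-ALL against normal T cells. Rps29 had 1.07 in AML and -1.44 in T-ALL. In the myeloid gate the median member had 2.25, and these 3 lay below that median.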

How the results depend on the processing

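The direction of each gate's member median held under all pseudocounts, scalings and filters tried. The members' median became -0.32 (T-ALL), 1.40 (AML) and 0.79 (AUL) under median-ratio scaling, and 2.48 or 2.73 in AML with equal FPKM sums over all listed or over non-member genes. The count of members at least 2-fold higher in B-ALL became 1 with a pseudocount of 5, under median-ratio scaling and with equal FPKM sums of either kind (10.0%, 14.7%, 17.2% and 17.8% of all genes), and 13 at a fold of 1.5 (30.7%). In T-ALL it became 6 at a fold of 1.5 (34.7%). In AUL it became 23 under median-ratio scaling (17.7%), 5 with equal FPKM sums over all listed genes (12.0%), 10 over non-member genes (14.3%) and 43 at a fold of 1.5 (25.5%). The members' share without S100a8, S100a9, receptor segments and Mycn in the total was 16.5%, 20.9%, 18.7% and 21.9% in the leukaemias and 14.9%, 23.05%, 4.04% and 15.96% in the normal libraries. For subunit genes only it was 15.9%, 20.4%, 18.3% and 21.4%, and 14.05%, 22.4%, 3.30% and 15.05%. In limma, 2 members passed with a pseudocount of 0.1 (of 839 genes) and under median-ratio scaling (of 858), Rps27l joining with adjusted p = 0.043 and 0.041. No member passed with a pseudocount of 5 (of 3 genes), with all genes above 0 FPKM (of 3) or scaled to the subunit genes (of 1, chosen after the data were seen), against 408 genes in the fit reported. The adjusted p of Rps4l ranged from 0.022 to 0.099 over the settings run. Leaving out 1 gate at a time gave 0 to 1 members, with the call lost without the T-cell, myeloid or lineage-negative gate. Equal FPKM sums left 170 genes, and dropping the gate block left 41, each with 1 member. Scaled to the subunit genes, Rplp1 had -0.20, Rplp2 -0.34 and Rps27rt -0.50, and Rps27rt had -0.13 under median-ratio scaling. Over the fits without 1 gate, Rpl22l1 ranged from -0.65 to 0.20, Rplp1 from -0.22 to 0.80, Rplp2 from -0.28 to 0.60, Rps27rt from -0.32 to 0.45 and Rps28 from -0.76 to 0.21. The cause of these changes was not tested. No paired analysis by replicate number was possible because each group has 1 library.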

Other observations

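The 93 listed ribosomal protein pseudogenes (-ps) were measured beside the members. Their FPKM summed to 4.59% to 5.43% of the members' sum in the 8 libraries. Their median log2 ratios were 0.28, -0.04, 1.67 and 0.77 in the B-cell, T-cell, myeloid and lineage-negative gates, against 0.27, -0.14, 2.25 and 0.59 for the members. How fragments were split between parent genes and copies was not tested.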
